A study of Homo sapiens with 12 samples.

Results

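The genes described here are 10 muscle-related regulators of alternative splicing in RD cells, taken by name from the gene count table: *MBNL1*, *MBNL2*, *MBNL3*, *CELF1*, *CELF2*, *RBFOX2*, *RBM20*, *RBM24*, *PTBP1* and *PTBP2*. All 10 were present among the 26485 gene symbols, and all 10 were among the 15206 genes with enough reads to be tested. RD is an established human cell line derived from a rhabdomyosarcoma without a PAX-FOXO1 fusion, a tumour whose cells resemble skeletal muscle precursors that have not finished differentiating. Each cell population carried a doxycycline-inducible hairpin against *NT5E*, which encodes the ecto-enzyme CD73. The 4 groups were the construct titled ish with doxycycline (Dox) at 10 ng/mL for 96 h, ish without Dox, the construct titled ish2 with the same Dox treatment, and ish2 without Dox, with 3 libraries each. All groups share the RD background and an integrated hairpin. No group carried a non-targeting hairpin with Dox, so effects of Dox itself, of hairpin expression and of *NT5E* knockdown cannot be told apart. The labels do not say whether the replicates were separate cultures, so the p-values measure the spread between these samples, which may be technical. The libraries are bulk, so a smaller number of cells expressing a gene and less RNA per cell cannot be told apart either.

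Alternative splicing lets a pre-mRNA give different mature mRNAs, and muscle uses it to switch contractile and signalling proteins from precursor to adult forms. MBNL and RBFOX proteins promote adult muscle exon choices, whereas CELF1 and the polypyrimidine tract binding proteins, PTBP1 above all, favour precursor or non-muscle choices. RBM20 and RBM24 are enriched in striated muscle, RBM20 acting on titin and other sarcomere pre-mRNAs and RBM24 promoting muscle exon inclusion and stabilising muscle mRNAs. The table gives 1 count per gene and library, so the results concern the amount of mRNA of each factor, and no exon usage was measured.

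Gene counts per library ran from 26566603 to 32692207. *NT5E* was measured at 1.57 ± 0.354 CPM in ish with Dox and 16.7 ± 1.61 CPM in ish without Dox (CPM, read counts scaled to a common library size, mean ± SD, n = 3), and at 14.6 ± 0.542 CPM in ish2 with Dox and 23.3 ± 1.03 CPM in ish2 without Dox. Of 12 skeletal muscle markers, 11 were tested. *MYOD1*, *MYOG* and *DES*, taken as defining, were present in every group. Their mean levels lay between 17.6 CPM (*MYOG* in ish2 with Dox) and 654.4 CPM (*MYOG* in ish with Dox). In ish2, *MYOG* had a mean of 17.6 CPM with Dox against 82.9 CPM without. *DES* was there at 494 against 316 CPM and *MYOD1* at 150 against 134 CPM. *CHRNA1* was the 1 tested marker called lower in ish, at 824 CPM with Dox against 999 CPM without. In ish2 *CHRNA1* was at 1153 against 1136 CPM and was not called. *MYF5*, with at most 1 count in any library, was the marker not tested. *MYF6* had a mean of 1.14 CPM in ish with Dox and of 0.036 to 0.108 CPM in the other groups. The summed level of the 12 muscle markers was 6108 to 6555 CPM in ish with Dox against 2218 to 2355 CPM in ish without Dox, and 2157 to 2201 CPM in ish2 with Dox against 2326 to 2441 CPM in ish2 without Dox. Among markers of other cell types, 4 of 8 neuronal, 4 of 6 endothelial, 5 of 6 leukocyte and 4 of 6 epithelial genes stayed under 1 CPM in all 12 libraries. The epithelial sum, of which *KRT8* and *KRT18* were the tested genes, was 6.79 to 8.71 CPM in ish with Dox against 31.9 to 33.7 CPM in ish without Dox, and 60.2 to 61.2 CPM in ish2 with Dox against 37.5 to 42.5 CPM in ish2 without Dox. The neuronal sum was 399 to 424 CPM in ish with Dox against 263 to 266 CPM in ish without Dox, and 256 to 271 CPM in ish2 with Dox against 276 to 295 CPM in ish2 without Dox. *TUBB3* held most of it, with means of 361 and 219 CPM in ish with and without Dox, and 212 and 247 CPM in ish2. *SYP* went the other way in ish, at 1.81 CPM with Dox against 3.71 CPM without. The endothelial sum was 6.77 to 7.45 CPM in ish with Dox against 10.3 to 10.6 CPM in ish without Dox, and 10.7 to 11.1 CPM in ish2 with Dox against 11.4 to 12.02 CPM in ish2 without Dox. Within it, *TEK* had a mean of 2.17 CPM in ish with Dox against 9.29 CPM without, while *CLDN5* had 4.68 against 0.625 CPM. The leukocyte sum was 0.565 to 0.769 CPM in ish with Dox against 0.511 to 0.932 CPM in ish without Dox, and 1.51 to 1.69 CPM in ish2 with Dox against 0.651 to 0.939 CPM in ish2 without Dox. Of the tested genes of these lists, 1 of 5 neuronal, 1 of 3 endothelial, 0 of 1 leukocyte and 0 of 2 epithelial markers were called higher in ish, and 1, 1, 1 and 2 lower. In ish2, 1, 0, 1 and 2 were called higher and 3, 1, 0 and 0 lower. The part of these marker levels in the results below was not tested.

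With Dox, *RBM20* and *RBM24*, enriched in striated muscle, rose in ish, as did *RBFOX2* and *MBNL3*. *MBNL1*, the main form of adult muscle, fell there, as did *PTBP1*. The response of ish2 was called different for all 10 factors, where 72.6% of all tested genes were called. The *CELF2* and *PTBP2* calls of that difference were lost without some single libraries. In ish, *RBM20*, *RBM24*, *RBFOX2* and *MBNL3* rose, *MBNL1*, *PTBP1*, *CELF2* and *CELF1* fell, and *MBNL2* and *PTBP2* were not called. These 4 higher and 4 lower of 10 compare with 78.6% of all tested genes called in ish, 39.1% higher and 39.5% lower, at an edgeR adjusted p under 0.05. In ish2, *MBNL2*, *RBM24* and *CELF1* rose, *RBFOX2*, *MBNL3*, *MBNL1* and *PTBP2* fell, and *CELF2*, *RBM20* and *PTBP1* were not called. There, 65.0% of tested genes were called, 33.9% higher and 31.1% lower, so in neither construct does the number of factors called stand apart from the background. A change of at least 1.5-fold was called for 3 factors higher and 1 lower in ish, where 34.8% of tested genes passed both criteria (14.9% higher and 19.9% lower). It was called for none in ish2, where 16.4% passed (8.77% higher and 7.65% lower). The Dox and no-Dox libraries did not overlap for 7 factors in ish and 6 in ish2, against 80.6% and 66.6% of tested genes. The median log2 fold change of the 10 factors was 0.06 in ish and -0.04 in ish2, against -0.0078 and 0.01 over all tested genes. The median size of the change, regardless of direction, was 0.45 in ish and 0.25 in ish2 for the factors, and 0.40 and 0.25 for all tested genes.

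**Figure D1:**
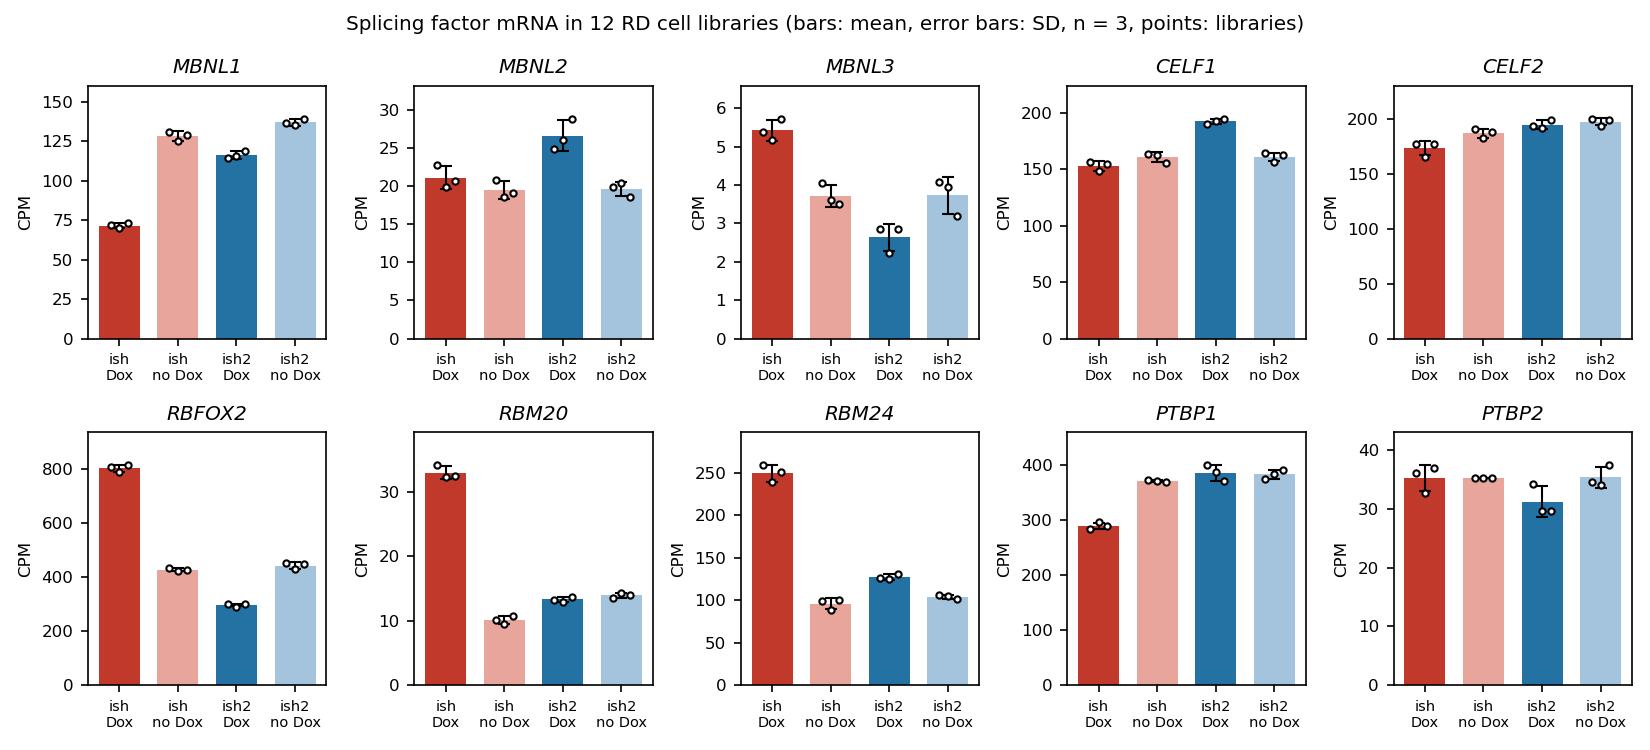
CPM of each splicing factor (y axis, linear from 0) in the 4 groups (x axis), with bars for the mean of 3 libraries, error bars for the SD and points for libraries. In ish, the Dox libraries of *RBM20*, *RBM24* and *RBFOX2* all lie above, and those of *MBNL1* and *PTBP1* all below, the libraries without Dox.

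*RBM20* and *RBM24*, RNA-binding proteins enriched in heart and skeletal muscle, had the largest changes among the 10 factors in ish. *RBM20* was measured at 34.2, 32.3 and 32.5 CPM in the 3 ish libraries with Dox, against 10.2, 9.51 and 10.7 CPM in the 3 without. All Dox libraries were higher, by 3.25-fold (log2 fold change 1.70, SE 0.05, edgeR adjusted p = 9.85e-26), a change larger in size than that of 93.1% of tested genes. The ish2 libraries held 13.3, 13.0 and 13.7 CPM with Dox against 13.5, 14.3 and 14.0 CPM without, and the groups overlapped. The log2 fold change there was -0.06 with a 95% interval of -0.19 to 0.06 (adjusted p = 0.4).

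*RBM24* was measured at 258.4, 238.8 and 250.7 CPM in ish with Dox, against 99.2, 88.8 and 99.8 CPM in ish without Dox. The groups did not overlap, and the rise was 2.60-fold (log2 fold change 1.38, SE 0.04, edgeR adjusted p = 3.31e-23). The ish2 libraries held *RBM24* at 125.7, 124.8 and 130.7 CPM with Dox against 105.7, 104.5 and 101.0 CPM without, again with no overlap but with a rise of 1.23-fold (log2 fold change 0.29, SE 0.04, adjusted p = 1.21e-07). *RBM24* was thus the factor called higher in both constructs, and its rise in ish2 was smaller than in ish by 1.08 on the log2 scale (SE 0.05, adjusted p = 9.09e-17). For *RBM20* the effect in ish2 was lower than that in ish by 1.76 (SE 0.08, adjusted p = 3.11e-20).

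The start-site windows of these genes are shown because the muscle-enriched pair moved together across the 12 libraries (Pearson r of log2 CPM 0.97, a description). Each holds 250 bases before and 50 after the gene start in RefSeq on GRCh38.p14, plus strand for both, at chr6:17281814-17282113 for *RBM24* and at chr10:110644086-110644385 for *RBM20*. Capitals mark the matches to CANNTG, the E-box core that MyoD-family factors bind.
RBM24: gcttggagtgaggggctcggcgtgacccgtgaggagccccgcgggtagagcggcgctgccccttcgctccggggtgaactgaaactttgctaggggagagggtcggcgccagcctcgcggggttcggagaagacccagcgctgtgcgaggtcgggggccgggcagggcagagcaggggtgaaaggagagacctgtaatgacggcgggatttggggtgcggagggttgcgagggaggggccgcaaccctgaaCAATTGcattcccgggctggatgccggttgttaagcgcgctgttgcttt
RBM20: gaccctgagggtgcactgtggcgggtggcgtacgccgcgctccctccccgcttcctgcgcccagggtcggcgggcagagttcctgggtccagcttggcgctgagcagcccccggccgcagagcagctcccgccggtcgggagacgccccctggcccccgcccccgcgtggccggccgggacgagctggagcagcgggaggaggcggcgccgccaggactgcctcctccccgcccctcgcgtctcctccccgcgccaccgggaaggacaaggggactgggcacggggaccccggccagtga
The *RBM24* window held 1 CANNTG match, CAATTG, whose first base lies 2 bases into the transcribed side counted from 1 at the start site, and the *RBM20* window held 0. Among all 35116 RefSeq windows of this length, 68.7% held at least 1 CANNTG on either strand, a motif that reads the same on both. The E-box variant CAGCTG, which is contained in CANNTG, was in 17.9% of windows. The pattern of CTA, any 4 bases, then TAG was in 2.73% and TATAAA in 11.5%, each on either strand. None of these was in either window. The CTA pattern is only a rough search for MEF2 sites, so its absence does not show that such sites are absent. The windows had a GC content of 66.7% in *RBM24* and 77.7% in *RBM20*. On GRCh38 in the GENCODE 29 annotation, *RBM24* (ENSG00000112183.14) spans 17281346 to 17293875 on the plus strand of chromosome 6, and *RBM20* (ENSG00000203867.7) spans 110644397 to 110839469 on the plus strand of chromosome 10. The start sites of RefSeq and GENCODE differ for both genes.

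*RBFOX2*, the RBFOX family member expressed most broadly and a regulator of exons that contain or flank its UGCAUG element, moved in opposite directions in the constructs. It was measured at 807.5, 788.5 and 813.3 CPM in ish with Dox, against 433.5, 423.4 and 426.2 CPM in ish without Dox. All Dox libraries were higher, by 1.88-fold (log2 fold change 0.91, SE 0.03, edgeR adjusted p = 1.14e-27). With ish2 the values were 299.2, 290.5 and 299.9 CPM with Dox, against 450.1, 428.1 and 448.3 CPM without. Here all Dox libraries were lower, by 1.49-fold (log2 fold change -0.58, SE 0.03, adjusted p = 1.62e-20), just inside the 1.5-fold line, which it passed under 8 of 23 alternatives. The difference between the effects, -1.49 on the log2 scale (SE 0.04, adjusted p = 4.28e-29), had the smallest adjusted p of the 10 factors. The summed muscle markers given above moved the same way as *RBFOX2* in each construct, with 10 of 11 tested markers higher in ish. In ish2, 6 were lower, 3 higher and 2 not called, so the fall of the sum there was a net of both directions. *CHRNA1*, the most abundant marker in ish2, was at 1153 CPM with Dox and 1136 CPM without. *ACTC1* was at 146 against 364 CPM, and *DES* at 494 against 316 CPM. The part of these markers in the *RBFOX2* result was not tested. *RBFOX2* (ENSG00000100320.22) lies on the minus strand of chromosome 22, from 35738736 to 36028425.

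The 3 muscleblind-like genes encode zinc-finger proteins that bind YGCY elements, MBNL1 being the main form of adult muscle. *MBNL1* was measured at 71.6, 69.9 and 72.9 CPM in ish with Dox, against 131.0, 125.0 and 129.1 CPM in ish without Dox. This was a fall of 1.79-fold with no overlap (log2 fold change -0.84, SE 0.03, edgeR adjusted p = 2.42e-24). The ish2 values were 114.3, 115.7 and 119.0 CPM with Dox and 136.4, 135.2 and 139.1 CPM without, a fall of 1.18-fold (log2 fold change -0.23, SE 0.03, adjusted p = 6.05e-09). *MBNL1* was thus called lower in both constructs, and its fall was smaller in ish2 by 0.61 on the log2 scale (SE 0.04, adjusted p = 1.2e-15). *MBNL1* (ENSG00000152601.17) spans 152243828 to 152465780 on the plus strand of chromosome 3.

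*MBNL2*, which is prominent in brain, was measured at 22.8, 19.9 and 20.6 CPM in ish with Dox and 20.8, 18.5 and 19.1 CPM in ish without Dox. These groups overlapped, and the log2 fold change of 0.12 (95% interval -0.0071 to 0.24, edgeR adjusted p = 0.0788) was not called. The value was called without ish Dox replicate 2 (adjusted p = 0.0369), without ish no-Dox replicate 1 (0.029) and in a fit restricted to the 6 ish libraries (0.0457), with adjusted p between 0.029 and 1 over the alternatives. The ish2 values were 24.9, 26.2 and 28.9 CPM with Dox and 19.9, 20.5 and 18.6 CPM without, all Dox libraries being higher, by 1.36-fold (log2 fold change 0.44, SE 0.06, adjusted p = 9.61e-08).

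*MBNL3*, the form of proliferating precursors and placenta, was the least abundant factor, with 60 to 186 counts per library. It was measured at 5.38, 5.18 and 5.72 CPM in ish with Dox against 4.05, 3.61 and 3.51 CPM in ish without Dox, a rise of 1.46-fold (log2 fold change 0.55, SE 0.11, edgeR adjusted p = 2.64e-05). Its ish2 values were 2.84, 2.23 and 2.84 CPM with Dox against 4.08, 3.94 and 3.18 CPM without, a fall of 1.41-fold (log2 fold change -0.49, SE 0.13, adjusted p = 0.00128). In each construct the Dox and no-Dox libraries did not overlap. Without ish2 no-Dox replicate 3 the ish2 log2 fold change was -0.60, past 1.5-fold. The ish2 effect minus the ish effect was -1.04 on the log2 scale (SE 0.17, adjusted p = 1.36e-06).

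Within the MBNL family, the share held by each gene shifted with Dox on a per-length scale. Exon length was taken as the union of basic transcripts in GENCODE 29, which need not be the annotation behind the counts. *MBNL1* made up 69.0 ± 1.28% of the summed CPM per kb of the 3 genes in ish with Dox and 81.6 ± 0.629% in ish without Dox (SD, n = 3). In ish2 its share was 75.3 ± 0.966% with Dox and 82.4 ± 0.981% without. *MBNL2* held 28.1 ± 1.36% in ish with Dox and 17.1 ± 0.56% in ish without Dox, where its level was not called and that of *MBNL1* fell. In ish2 *MBNL2* held 23.8 ± 0.97% with Dox and 16.3 ± 0.827% without. The share of *MBNL3* moved in opposite directions. It was 2.96 ± 0.117% in ish with Dox against 1.34 ± 0.0765% without, and 0.966 ± 0.128% in ish2 with Dox against 1.27 ± 0.167% without. The summed level of the family was 15.5 ± 0.459 CPM per kb in ish with Dox against 23.5 ± 0.701 in ish without Dox, and 23.1 ± 0.785 in ish2 with Dox against 24.8 ± 0.0662 in ish2 without Dox. These shares were given as a description and were not tested.

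*CELF1* and *CELF2* encode proteins that bind GU-rich elements, CELF1 acting against MBNL1 on a number of muscle exons. *CELF1* was measured at 156.9, 148.4 and 154.5 CPM in ish with Dox and 163.4, 162.9 and 155.6 CPM in ish without Dox, and the groups overlapped. It was called lower by 1.05-fold (log2 fold change -0.07, SE 0.03, edgeR adjusted p = 0.0303). The call did not hold with DESeq2-style size factors (adjusted p = 0.0725), with DESeq2 (0.11), or without ish Dox replicate 2 (0.145), ish no-Dox replicate 1 (0.0935) or ish no-Dox replicate 2 (0.109), over a range of 0.00333 to 1. In ish2, *CELF1* was measured at 190.2, 192.8 and 194.6 CPM with Dox and 164.0, 156.6 and 162.3 CPM without, all Dox libraries being higher, by 1.196-fold (log2 fold change 0.26, SE 0.03, adjusted p = 6.04e-10). The effect in ish2 exceeded that in ish by 0.33 (log2; SE 0.04, adjusted p = 5.11e-09).

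*CELF2* was measured at 177.0, 165.8 and 177.0 CPM in ish with Dox against 190.6, 182.6 and 188.5 CPM in ish without Dox, lower in all Dox libraries by 1.08-fold (log2 fold change -0.11, SE 0.03, edgeR adjusted p = 0.000647). With ish2, *CELF2* was measured at 193.6, 192.0 and 199.3 CPM with Dox and 200.1, 193.7 and 199.2 CPM without, with overlapping groups and a log2 fold change of -0.02 (95% interval -0.08 to 0.04, adjusted p = 0.563). *CELF1* and *CELF2* had the smallest changes of the factors called in ish, and the change of *CELF1* was larger in size than that of 9.45% of tested genes.

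*PTBP1*, a repressor of muscle and neuronal exons, fell in ish. It was measured at 284.3, 295.4 and 288.6 CPM with Dox against 372.2, 370.1 and 368.5 CPM without, lower in all Dox libraries by 1.28-fold (log2 fold change -0.36, SE 0.03, edgeR adjusted p = 1.84e-14). The ish2 libraries held it at 398.8, 387.4 and 370.0 CPM with Dox and 374.7, 382.6 and 391.4 CPM without. Those groups overlapped, and the log2 fold change was 0.0091 (95% interval -0.05 to 0.06, adjusted p = 0.781). The effect in ish2 exceeded that in ish by 0.36 (log2; SE 0.04, adjusted p = 1.03e-10). *PTBP1* (ENSG00000011304.19) spans 797075 to 812327 on the plus strand of chromosome 19.

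*PTBP2*, the paralog that replaces PTBP1 in developing neurons and whose mRNA PTBP1 is known to lower through exon skipping and decay, was not called in ish. It was measured at 36.2, 32.7 and 37.0 CPM with Dox and 35.3, 35.2 and 35.2 CPM without, with the libraries without Dox inside the range of the others. The log2 fold change was 0.0032 with a 95% interval of -0.10 to 0.11 (edgeR adjusted p = 0.957). The ish2 libraries held it at 34.3, 29.6 and 29.7 CPM with Dox and 34.6, 34.1 and 37.4 CPM without, a fall of 1.13-fold in groups that overlapped (log2 fold change -0.18, SE 0.05, adjusted p = 0.0037). Per length, *PTBP2* made up 3.62 ± 0.278% of the 2 PTB genes in ish with Dox against 2.84 ± 0.0124% in ish without Dox (SD, n = 3). In ish2 its share was 2.43 ± 0.139% with Dox against 2.76 ± 0.0914% without. The higher share in ish came with the fall of *PTBP1* and not with a called change of *PTBP2*. These shares were not tested.

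**Figure D2:**
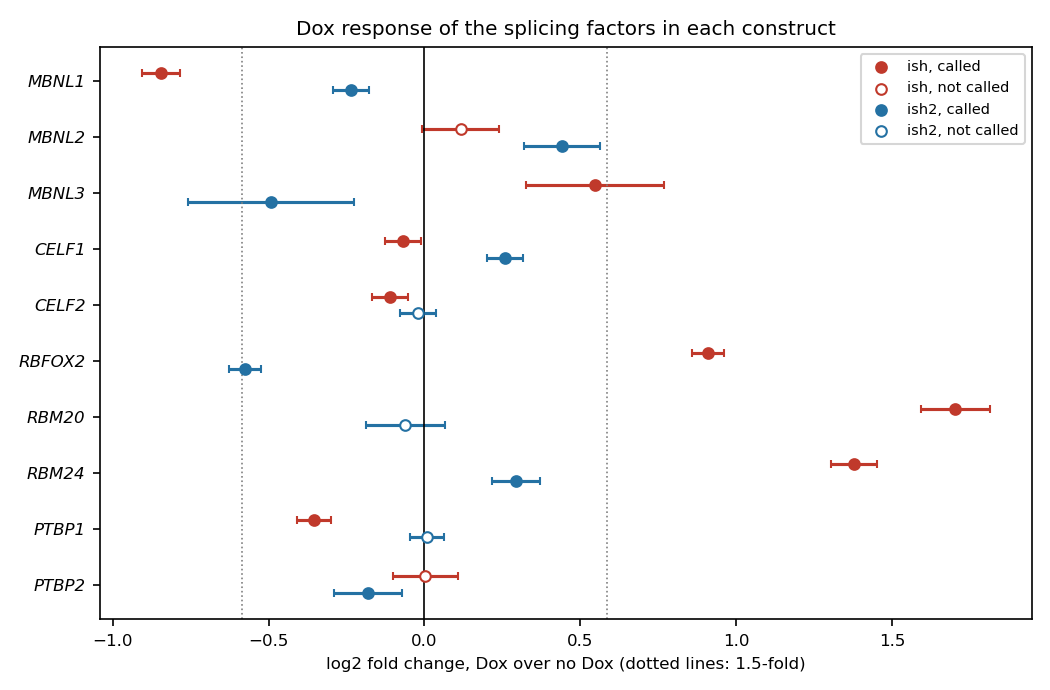
Log2 fold change of each factor, Dox over no Dox (x axis), in ish and ish2, with 95% intervals, filled points for called values and open points for those not called. *RBM20*, *RBM24* and *RBFOX2* lie right of the 1.5-fold line in ish, and *RBFOX2* and *MBNL3* lie on opposite sides of 0 in the constructs.

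All 10 factors were called in the test of the difference between the effects, ish2 minus ish, where 72.6% of tested genes were called (37.4% higher and 35.2% lower). The difference was positive for *MBNL1*, *MBNL2*, *CELF1*, *CELF2* and *PTBP1* and negative for *MBNL3*, *RBFOX2*, *RBM20*, *RBM24* and *PTBP2*. It reached 1.5-fold for *MBNL1* among the positive values and for *MBNL3*, *RBFOX2*, *RBM20* and *RBM24* among the negative ones, against 38.1% of tested genes (21.5% higher and 16.7% lower). For *CELF2* the difference was 0.09 (SE 0.04, edgeR adjusted p = 0.0409) and for *PTBP2* -0.18 (SE 0.07, adjusted p = 0.0258). The *CELF2* call was lost with all 12 libraries under DESeq2 (adjusted p = 0.142), DESeq2-style size factors (0.0973) and upper-quartile factors (0.0956), and both calls were lost without single libraries. For *CELF2* the adjusted p was 0.217 without ish Dox replicate 2, 0.131 without ish no-Dox replicate 1, 0.0828 without ish no-Dox replicate 3, 0.141 without ish2 Dox replicate 3 and 0.0961 without ish2 no-Dox replicate 2 (range over the alternatives 0.00991 to 1). For *PTBP2* it was 0.0539 without ish Dox replicate 1, 0.0762 without ish Dox replicate 3, 0.0746 without ish2 Dox replicate 2, 0.0749 without ish2 Dox replicate 3 and 0.0774 without ish2 no-Dox replicate 3 (range 0.00147 to 0.811). Of the 5 factors called in both constructs, *MBNL1* and *RBM24* changed in the same direction and *MBNL3*, *CELF1* and *RBFOX2* in opposite directions. Over all tested genes, 8220 (54.1%) were called in both, 51.7% of them in the same direction, so 5 of 10 factors is near the background.

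Without Dox, 6 of the 10 factors were not called between the lines. *RBM20* was measured at 13.5, 14.3 and 14.0 CPM in uninduced ish2 against 10.2, 9.51 and 10.7 CPM in uninduced ish, higher in all libraries by 1.37-fold (log2 fold change 0.46, SE 0.06, edgeR adjusted p = 1.39e-06). *RBM24* (0.11, adjusted p = 0.031), *MBNL1* (0.09, adjusted p = 0.0125) and *CELF2* (0.08, adjusted p = 0.0393) were also called higher in ish2, and no factor was called lower. This made 4 of 10 called, against 26.1% of tested genes (13.7% higher and 12.4% lower). None reached 1.5-fold, against 1.83% of tested genes (0.388% higher and 1.44% lower), and 5 factors had libraries that did not overlap, against 38.2%. Without ish no-Dox replicate 2 the adjusted p became 0.261 for *RBM24* (range over the alternatives 0.00364 to 1), 0.0931 for *MBNL1* (0.00518 to 1) and 0.191 for *CELF2* (0.0169 to 1). The *CELF2* call was also lost without ish no-Dox replicate 3 (0.0758), ish2 no-Dox replicate 1 (0.116) and ish2 no-Dox replicate 3 (0.0746), and that of *RBM24* without ish2 no-Dox replicate 1 (0.106) and replicate 2 (0.0888). With every library of these groups kept, the *CELF2* call was lost by total gene count (0.0718), with upper-quartile factors (0.0594) and in a fit of the uninduced libraries alone (0.0554), and the *RBM24* call by total gene count (0.0538). *RBFOX2* was not called (0.05, adjusted p = 0.166) but was called without ish2 no-Dox replicate 2 (adjusted p = 0.0448, range over the alternatives 0.0448 to 1). The other 5 factors had log2 differences between 0.0033 (*CELF1*) and 0.05 (*PTBP1*) and were not called. A fold change with Dox is relative to the uninduced level of its own line, so for *RBM20* it started from a lower level in ish.

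Per kilobase of exon, *PTBP1* was the most abundant of the 10 mRNAs in 3 of the 4 groups, but not in ish with Dox. This order depends on the exon union lengths described above, 3.698 kb for *PTBP1* and 7.253 kb for *RBFOX2*, which need not match the transcripts expressed. By CPM, *RBFOX2* exceeded *PTBP1* in uninduced ish (427.7 against 370.3) and uninduced ish2 (442.2 against 382.9). In ish with Dox the order was led by *RBFOX2* (110.7 ± 1.79 CPM per kb), *RBM24* (84.1 ± 3.35) and *PTBP1* (78.3 ± 1.52), whose libraries did not overlap, whereas in ish without Dox it was *PTBP1* (100.1 ± 0.495), *RBFOX2* (58.97 ± 0.719) and *RBM24* (32.4 ± 2.09; SD, n = 3). In ish2 with Dox *PTBP1* (104.2 ± 3.92) was followed by *RBM24* (42.9 ± 1.08) and *RBFOX2* (40.9 ± 0.721), and in ish2 without Dox *PTBP1* (103.5 ± 2.25) by *RBFOX2* (61.0 ± 1.69) and *RBM24* (35.0 ± 0.824). *CELF1*, *CELF2* and *MBNL1* took the next places in every group, between 10.7 and 21.5 CPM per kb. *CELF1* and *CELF2* overlapped in both ish groups, at 17.1 ± 0.489 and 16.6 ± 0.619 CPM per kb with Dox and 17.9 ± 0.485 and 17.9 ± 0.394 without. *RBM20* stood in the seventh place in ish with Dox, at 4.56 ± 0.14 CPM per kb, and in the ninth in the other 3 groups, at 1.40 to 1.93. In ish with Dox it overlapped *MBNL2*, at 4.35 ± 0.313. *MBNL3* was last in all groups, at 0.223 to 0.459 CPM per kb. By CPM, without regard to length, *RBFOX2* was higher than 98.5% of tested genes on average over the libraries and *MBNL3* higher than 23.7%.

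**Figure D3:**
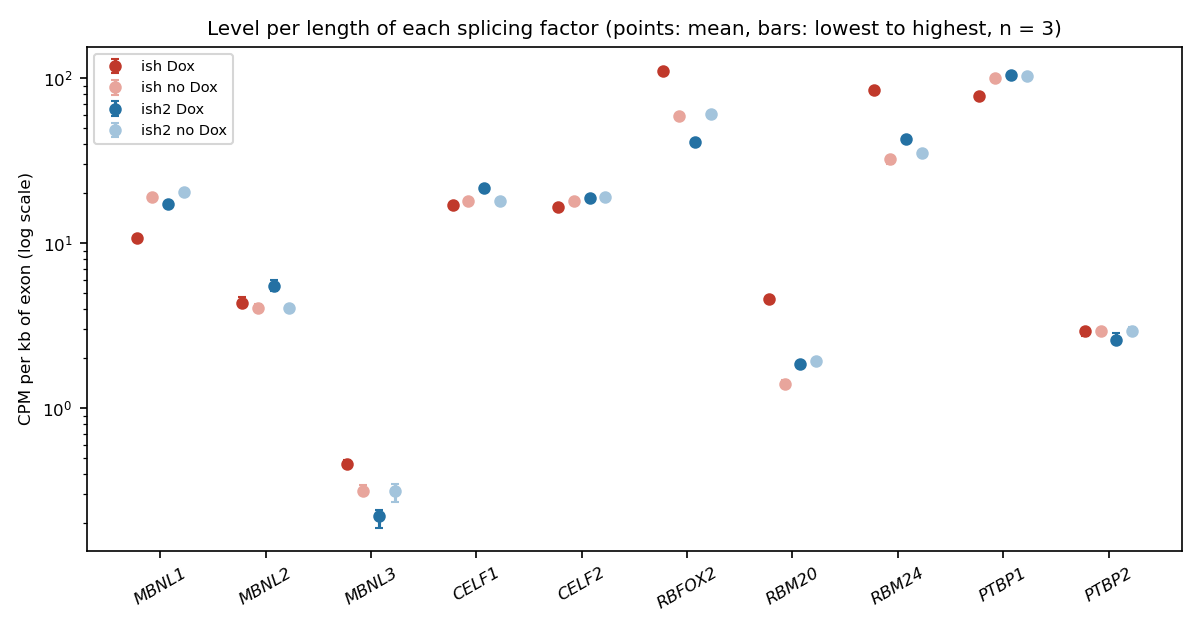
Level of each factor in CPM per kb of exon (y axis, log scale) in the 4 groups, with points for the mean and bars from the lowest to the highest of 3 libraries. *RBFOX2* and *RBM24* lie above *PTBP1* in ish with Dox at 110.7 and 84.1 against 78.3 CPM per kb, and below it in the other 3 groups.

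The labels name a stranded kit, but no source used here says whether strand was used in counting, so reads of genes that overlap on the other strand may be shared. Overlap was taken between whole gene spans in GENCODE 29, introns included, and overlap of exons was not checked. By span, genes of the count table on the opposite strand overlap *MBNL1* (*MBNL1-AS1*), *MBNL3* (*RAP2C-AS1*), *CELF1* (*NDUFS3* and *PTPMT1*) and *CELF2* (*LINC00710*, *CELF2-AS1* and *CELF2-AS2*). *RBM20*, *RBM24*, *RBFOX2*, *MBNL2* and *PTBP2* had no such neighbour, and *PTBP1* held a miRNA gene of its own strand.

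Across the 12 libraries, the factors fell into sets whose log2 CPM moved together or apart, a description over points that share 4 groups and a common scaling. *RBM20* and *RBM24* went together (Pearson r = 0.97), as did *MBNL3* and *RBFOX2* (0.94) and *MBNL1* and *PTBP1* (0.94). *MBNL1* moved against *RBM24* (-0.97) and *RBM20* (-0.93), and *PTBP1* against *RBM24* (-0.92), *RBFOX2* (-0.91) and *RBM20* (-0.91). Among the 12347 other genes with a mean log2 CPM of at least 1, the closest to *RBM24* were *PGBD5* and *MEF2D* (r = 0.998 each), *MEF2D* encoding a partner of the MyoD family in muscle. The closest to *RBFOX2* were *RYR1*, the calcium release channel of skeletal muscle, and *BRD3*, a bromodomain protein (r = 0.999 each). *RBM20* was closest to *AKT1S1* and *UNC119* (0.993 each), *MBNL1* to *PHLDB2* (0.999) and *SMC4* (0.998), and *PTBP1* to the tubulin gene *TUBA1C* (0.995) and *CKS1B* (0.993). *MBNL2* was closest to *BROX* (0.968) and *UBLCP1* (0.959), *MBNL3* to *KDM5C* (0.98) and *CGGBP1* (0.973), and *CELF1* to *SLC7A2* (0.986) and *ZNF121* (0.984). *CELF2* was closest to *ARID4A* (0.963) and *KLF7* (0.957), and *PTBP2* to *PDXP* (0.937) and *FNDC8* (0.902).

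Of 8 further members of the same families, 7 were tested, with 3 higher and 2 lower in ish and 1 of each in ish2 (median log2 fold change 0.37 and 0.16). *RBM38*, an RNA-binding protein related to RBM24, was measured at 67.8 ± 1.16 CPM in ish with Dox and 52.5 ± 2.04 CPM in ish without Dox, and at 29 ± 0.383 CPM in ish2 with Dox and 54.3 ± 2.38 CPM in ish2 without Dox (SD, n = 3). It rose in ish (log2 fold change 0.37, SE 0.04) and fell in ish2 (-0.90, SE 0.04), as *RBFOX2* did, and the effects differed (edgeR adjusted p = 2.62e-21). *RBFOX1*, the RBFOX form of muscle and neurons, rose in ish (0.59, SE 0.04) and had a log2 fold change of -0.03 in ish2 (adjusted p = 0.505). *PTBP3* fell in ish (-0.42, SE 0.03) and rose in ish2 (0.16, SE 0.03). *CELF6* rose in ish from few reads (2.08 ± 0.306 CPM with Dox and 0.427 ± 0.0845 CPM without; log2 fold change 2.27, SE 0.22) and was not called in ish2 (0.24, adjusted p = 0.582).

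Genes whose muscle exons are known targets of these factors also changed in total mRNA. Of 37 tested, 30 were higher and 6 lower in ish (median 0.82), and 11 were higher and 20 lower in ish2 (median -0.25). Of all tested genes, 39.1% were higher and 39.5% lower in ish, and 33.9% and 31.1% in ish2. The 6 lower in ish were *ACTN1*, *CAMK2G*, *DMD*, *INSR*, *PKM* and *VCL*, with log2 fold changes from -0.52 (*INSR*) to -0.09 (*PKM*). *CACNA1S*, a subunit of the muscle calcium channel, had log2 fold changes of 4.14 in ish and -1.13 in ish2, and *LDB3*, a Z-disc protein, of 2.89 and -0.67, all called. *TPM2*, a tropomyosin, rose by 1.77 in ish and fell by 0.68 in ish2, and *MEF2C* rose by 2.93 and 0.18. These are total mRNA levels of the targets, and several are muscle markers themselves. As a list, the 11 tested muscle markers had a median of 2.62 in ish and -0.58 in ish2, and those with the smallest p were *MEF2C*, the perinatal myosin gene *MYH8* (3.58 and -1.81), *MYOD1* (1.596 and 0.17) and *CDH15* (1.00 and -0.58).

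SR, TRA2 and hnRNP proteins are general splicing factors, and SR protein kinases phosphorylate SR proteins. Of 13 SR and TRA2 genes tested, 5 were higher and 7 lower in ish (median -0.07) and 2 higher and 11 lower in ish2 (median -0.17), with *SRSF1* lower in both (-0.42 and -0.39), *SRSF3* lower in both (-0.15 and -0.27), *SRSF8* higher in both (0.63 and 0.87) and *SRSF9* lower in ish and higher in ish2 (-0.15 and 0.33). Of 22 hnRNP genes, 7 were higher and 14 lower in ish, and 0 higher and 19 lower in ish2, with a median of -0.17 in ish and -0.18 in ish2. *HNRNPUL1* had log2 fold changes of -0.31 in ish and -1.16 in ish2, *HNRNPR* of -0.84 and -0.11, *HNRNPA1* of -0.62 and -0.43 and *HNRNPC* of -0.42 and -0.10, all called. Of 8 SR protein kinase genes, 5 were higher and 2 lower in ish (median 0.30) and 3 higher and 5 lower in ish2 (median -0.07). *SRPK3*, the muscle-specific kinase of SR proteins, was measured at 68.0 ± 4.596 CPM in ish with Dox and 19.5 ± 0.696 CPM in ish without Dox, and at 5.01 ± 0.194 CPM in ish2 with Dox and 15.7 ± 1.94 CPM in ish2 without Dox (log2 fold changes 1.80 and -1.64, both called). *SRPK2* rose in ish and fell in ish2 (0.33 and -0.06), *DYRK1A* rose in both (0.54 and 0.09), and *CLK2* fell in ish and rose in ish2 (-0.39 and 0.09), all called.

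Among 28 tested genes of a wider list of tissue splicing regulators, 16 were higher and 10 lower in ish (median 0.12), and 8 higher and 17 lower in ish2 (median -0.14). *KHDRBS3*, a STAR-family RNA-binding protein, was measured at 7.70 ± 0.537 CPM in ish with Dox and 19.3 ± 0.647 CPM in ish without Dox, and at 55.7 ± 1.28 CPM in ish2 with Dox and 17.8 ± 0.804 CPM in ish2 without Dox (log2 fold changes -1.32 and 1.64, both called). *RBPMS*, a splicing regulator of smooth and cardiac muscle, fell in both constructs (-1.03 and -0.52), and *RBM5* rose in ish (0.61) and fell in ish2 (-0.10). None of these lists was tested as a set. The shares of all tested genes called higher and lower, given above for each construct, are the level against which their counts are read.

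**Figure D4:**
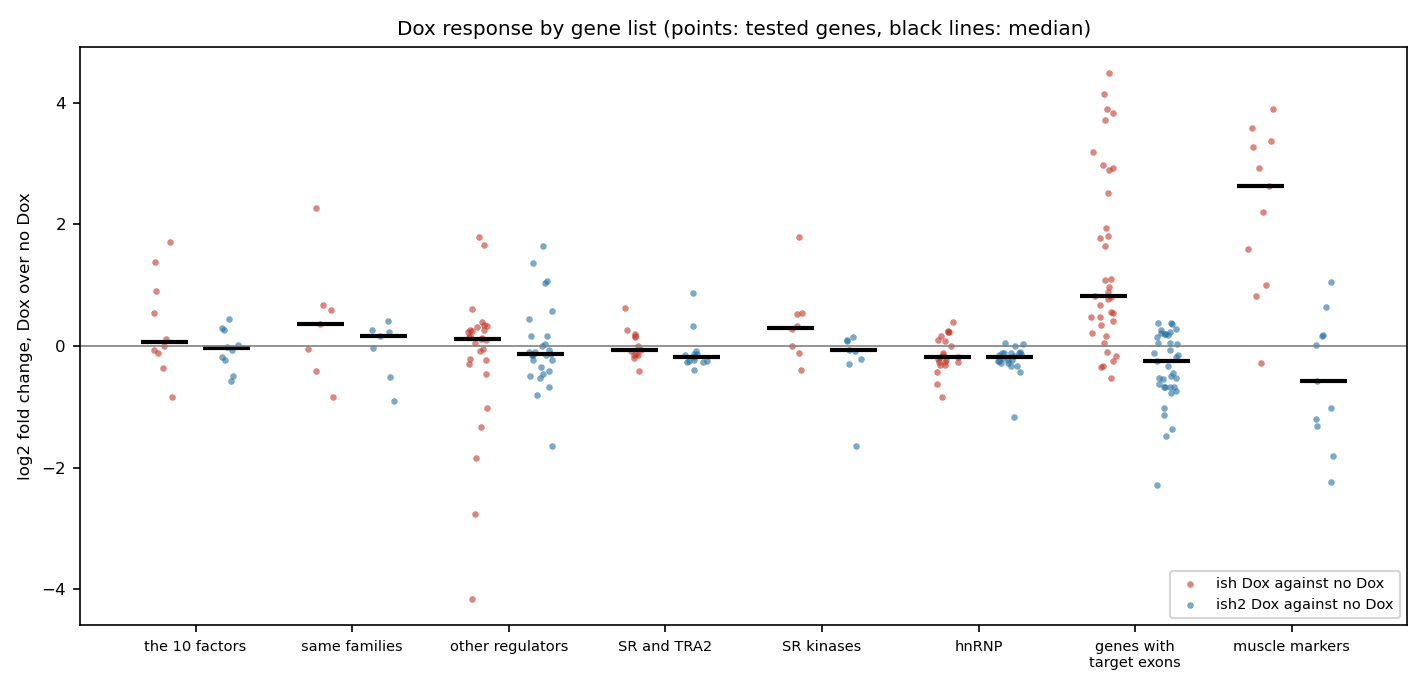
Log2 fold change, Dox over no Dox (y axis), of the tested genes of each list (x axis) in ish and ish2, with a point per gene and a black line at the median. The genes with target exons and the muscle markers have medians of 0.82 and 2.62 in ish and of -0.25 and -0.58 in ish2, while the SR and hnRNP medians lie within 0.2 of 0.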

How the data were processed

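RNA of 12 RD cell libraries in 4 groups of 3 was sequenced by the authors as stranded mRNA, 75-base paired-end reads, per the labels' protocols. The authors deposited raw counts per gene symbol, with no normalization. The submitters' processing notes name, without roles, GRCh38, STAR 2.7.3a, Subread 1.6.3, featureCounts and Trim Galore 0.6.4, and no annotation is named in what was used here. The 5 summary rows that name no gene, holding 21.0% to 24.4% of the counts of each library, were left out. Groups came from the titles, and the headers' Sh1 was taken as ish, the only other construct being ish2.

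Genes were filtered with filterByExpr by group (15206 kept, 11279 left out) and scaled by TMM. The edgeR 4.0.16 quasi-likelihood test (robust, on R 4.3.3 with limma 3.58.1), with a mean for each of the 4 groups, gave each contrast, with Benjamini-Hochberg adjustment over all tested genes and calls under 0.05. With a common biological coefficient of variation of 2.44%, small folds pass. SE is the absolute log2 fold change over the square root of F, and the 95% intervals built on it are approximate. CPM use TMM-scaled library sizes, and log2 CPM for correlations had a prior count of 2. The method was tested on simulated data.

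The 10 factors, NT5E, up to 4 genes per list with the smallest p, and the 2 closest genes per factor are named, and MYOG, DES and the epithelial pair were added as defining markers after their values were seen. MYF5, MYF6, CHRNA1, ACTC1 and the 6 genes with target exons lower in ish were also named with their values known. The members and lists were chosen with earlier results of these data known, so their patterns are no independent support. Alternatives were other scalings, DESeq2 1.42.0, other filters, spread, thresholds, samples, a replicate block and leaving out each library. Replicate numbers did not pair the samples.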

Additional observations from a re-analysis of the deposited data

Results flagged for a closer look

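Each of the 10 splicing factors differed between the constructs in its response to Dox by the test of the difference itself (ish2 effect minus ish effect on the log2 scale, edgeR, adjusted over all tested genes, 3 libraries per group), at a background of 72.6% of tested genes. The difference was -1.76 for *RBM20*, -1.49 for *RBFOX2*, -1.08 for *RBM24* and -1.04 for *MBNL3*, with adjusted p of at most 1.36e-06. It was 0.61 for *MBNL1*, 0.36 for *PTBP1* and 0.33 for *CELF1*, with adjusted p of at most 5.11e-09, and 0.33 for *MBNL2* (adjusted p = 0.00106). For *PTBP2* it was -0.18 (adjusted p = 0.0258) and for *CELF2* 0.0918 (adjusted p = 0.0409). Both of these calls were lost without some single libraries, and that of *CELF2* also under DESeq2 (adjusted p = 0.142), DESeq2-style size factors (0.0973) and upper-quartile factors (0.0956). *NT5E* mRNA with Dox was measured at 14.6 ± 0.542 CPM in ish2 against 1.57 ± 0.354 CPM in ish (SD, n = 3), and its part in these differences was not tested.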

How the results depend on the processing

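Of the 29 called values of the 10 factors over the 4 comparisons, none changed sign under any alternative run. Of their 657 alternative values, 609 kept the call and 48 lost it, and the cause of the losses was not tested except where a stricter threshold makes them. Of the 11 values not called, 31 of 253 alternative values changed sign, all without a call (smallest adjusted p = 0.568). For *PTBP2* in ish the value was -0.02 by total gene count, -0.0026 with upper-quartile factors and -0.0017 without the low-count filter, and ran from -0.0364 to 0.0494 without single libraries. For *PTBP1* in ish2 it was -0.0161 with upper-quartile factors and -0.00073 from its own libraries, and ran from -0.0164 to 0.0346 without single libraries. Between the uninduced lines, total gene count gave -0.0048 for *MBNL3*, -0.0077 for *CELF1* and -0.0056 for *PTBP2*, upper-quartile factors gave -0.0022, -0.0051 and -0.0029, and the stricter filter gave -0.0018 for *CELF1*. Without single libraries these ran from -0.0639 to 0.11 for *MBNL3*, -0.0192 to 0.0227 for *CELF1*, -0.0366 to 0.02996 for *PTBP2* and -0.0205 to 0.0611 for *MBNL2*.

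Tested against 1.2-fold, all genes called numbered 7905 in ish, 4419 in ish2 and 161 between uninduced lines, against 11945, 9883 and 3974. Factors called were then 4 higher and 2 lower in ish, 1 higher and 2 lower in ish2, 3 higher and 4 lower in the difference, and 1 higher and 0 lower between uninduced lines. For the difference, all genes called numbered 7867 at the lowest over the alternatives, against 11039 of 15206 in the main test. At an adjusted p under 0.01, 2502 genes and 1 factor were called between the uninduced lines, and by total gene count 2 factors. *RBFOX2* passed 1.5-fold in ish2, making 1 factor there, with upper-quartile factors (-0.60) and from its own libraries (-0.59), and the count ran from 0 to 1 without single libraries, the 1 being *RBFOX2* or, without ish2 no-Dox replicate 3, *MBNL3* (-0.60). Without single libraries, factors called higher between uninduced lines ran from 1 to 4. In the test with the replicate block, the counts of called factors were the same (4 higher and 4 lower in ish, 3 higher and 4 lower in ish2) and no factor changed its call, with 11926 and 9835 genes called in all. Residuals of like-numbered libraries correlated at -0.0798 to 0.0381, and 3 of 12 correlated best within their number, so the numbers were not taken as pairs. *MBNL3*, with 60 to 186 counts per library, has the widest intervals.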
